A study of Homo sapiens with 6 samples.

Results

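The cytoplasmic ribosomal protein genes encode the protein part of the ribosome that translates nuclear mRNAs. Members were found by their symbols (RPL, RPS and RPLP names followed by a number, and RPSA). Kinases of RPS6, the RPS4Y genes and pseudogenes were excluded, and a symbol listed more than once was represented by its row of highest count. This gave 83 of the 24462 gene symbols in the files. Of these, 77 are core genes that encode standard ribosome components (31 of the small subunit, 43 of the large subunit and 3 of the stalk) and 6 are paralogs, RPL3L, RPL7L1, RPL10L, RPL22L1, RPL26L1 and RPL39L. The rule uses symbols and no measured value, but the family was picked for description with earlier results of these data known. FAU and GNB2L1, which also encode parts of the ribosome, and RPS27L do not match the symbol pattern and are described separately.

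PC3 is an established human cell line grown from a prostate cancer that had spread to bone. RNA was sequenced from 3 samples labelled si-Control, which received a non-targeting siRNA, and 3 samples labelled si-CITED2, which received siRNA against CITED2, a transcriptional coregulator. All 6 were transfected at 80 nM for 72 h and grown in the same serum-supplemented medium, and no untransfected sample was compared. The study used this comparison to ask how gene expression changes when CITED2 is depleted.

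Ribosomal proteins are made in the cytoplasm, imported into the nucleolus and built into the subunits together with ribosomal RNA. Their mRNAs are among the most abundant of a growing cell. Most of them begin with a cytosine followed by an uninterrupted run of pyrimidines, the terminal oligopyrimidine (TOP) motif, through which mTORC1 and LARP1 control their translation. That control acts mainly on translation, which RNA counts do not measure. A few genes have paralogs whose proteins can take the place of the standard one, some of them mainly in particular tissues.

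The start of these mRNAs is the sequence feature they share that the symbols did not use. RefSeq start sites on GRCh38.p14 were available for 66 of the 83 members, and windows of 30 bases (10 before the annotated start and 20 from it) were read 5′ to 3′. Some of the members whose values are described below are shown, with RPL26 and RPL22 as the parents of paralogs and RPS6 as a familiar TOP mRNA. Capitals mark the pyrimidine run that begins with C at the annotated start where it has at least 5 bases, so a window with no capitals has no such run.
RPL27A (chr11:8682782-8682811, plus strand): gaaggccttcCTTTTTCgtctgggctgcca
RPS27 (chr1:153990752-153990781, plus strand): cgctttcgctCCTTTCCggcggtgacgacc
RPL38 (chr17:74203668-74203697, plus strand): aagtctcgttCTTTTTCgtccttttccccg
RPS14 (chr5:150449720-150449749, minus strand): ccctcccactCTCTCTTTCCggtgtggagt
RPS6 (chr9:19380217-19380246, minus strand): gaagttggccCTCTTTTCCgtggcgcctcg
RPL26 (chr17:8383174-8383203, minus strand): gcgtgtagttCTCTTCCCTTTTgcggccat
RPL26L1, first start (chr5:172958719-172958748, plus strand): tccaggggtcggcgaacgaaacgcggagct
RPL26L1, other start (chr5:172958870-172958899, plus strand): ggcggcggccacaaacccgcaggcacgccg
RPL22 (chr1:6199576-6199605, minus strand): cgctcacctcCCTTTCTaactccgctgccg
RPL22L1 (chr3:170870176-170870205, minus strand): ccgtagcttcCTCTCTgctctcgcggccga
RPL7L1 (chr6:42879606-42879635, plus strand): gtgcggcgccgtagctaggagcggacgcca

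Such a run was present in 47 of the 66 matched members (71.2%), against 1404 of all 27305 genes in the table (5.14%). Among core genes the share was 74.2% (46 of 62), with 75% in the small subunit and 73.7% in the large subunit with the stalk. The longest run had 19 bases and belonged to RPL39. The mitochondrial ribosomal protein genes, which build the separate ribosome of mitochondria, had such a run in 6 of 69 (8.7%). Of the 4 paralogs in the table, RPL22L1 had one, and RPL26L1, RPL7L1 and RPL10L had none. Fixed letters were also searched on the sense strand of the same windows. CTTTCC was found in 28.8% of members and 1.91% of all genes, CTCTTTCC, which contains it, in 13.6% and 0.256%, and CTTTT in 24.2% and 4.55%. A match describes the annotated start only, and the starts used in PC3 were not measured.

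The total count per sample ranged from 19508925 to 28936374, and members held 1181992 to 1824648 counts. Levels are given as CPM, counts scaled to a common library size after adjustment by TMM, which assumes that most genes do not change. Counts from cultures give relative levels, so fewer cells and less RNA per cell cannot be told apart. CITED2 mRNA itself was at 36.5, 37.9 and 32.8 CPM in the samples labelled si-Control, against 46.0, 39.1 and 41.8 CPM in those labelled si-CITED2. The targeted mRNA was therefore higher in the samples labelled si-CITED2 (log2 fold change 0.24, SE 0.074, adjusted p = 0.0363 from edgeR). The call was lost in 4 of the 6 fits that left out a sample, with log2 fold changes of 0.17 to 0.29, and on library size without TMM (adjusted p = 0.0518 from edgeR). The RNA counts thus do not show the knockdown the label names. The study describes CITED2 as knocked down in PC3 cells and presents an immunoblot of the protein as its check of the knockdown. That blot is not part of these counts, and groups are called by their labels throughout. Epithelial KRT7, KRT8, KRT18 and KRT19 and VIM were each counted at 329 CPM or more in every sample, and KLK3 had 0 to 2 counts. Of the 7 blood markers, HBA1, HBA2 and HBB had 20 to 59 counts in the samples labelled si-CITED2 and 0 to 3 in those labelled si-Control. All 3 were called higher in si-CITED2, with log2 fold changes of 4.87, 5.31 and 7.69. Their adjusted p from edgeR was 4.1e-07, 4.3e-07 and 1.1e-05, at mean levels of 2.07, 2.30 and 1.09 CPM in si-CITED2. The summed level of the 7 was 136 to 146 CPM in si-Control and 129 to 153 CPM in si-CITED2, nearly all of it CD68, and PTPRC and CD3E had 0 to 2 counts. The summed level of 6 fibroblast and endothelial markers was 5.44 to 6.08 CPM and 6.34 to 7.22 CPM, with DCN and LUM at 0 to 2 counts. Nearly all of it was COL1A1, at 4.95 to 5.32 CPM in si-Control and 5.93 to 6.79 CPM in si-CITED2. Its groups did not overlap, and it was not called (log2 fold change 0.32, adjusted p = 0.105 from edgeR). The part of these markers in the results was not tested.

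In their ribosomal protein mRNAs, the samples labelled si-Control replicates 1 and 3 lay at opposite extremes. All 77 core genes were above their own mean over the 6 samples in si-Control replicate 1. The number was 3 and 0 in si-Control replicates 2 and 3, and 47, 51 and 60 in si-CITED2 replicates 1, 2 and 3. Replicate 1 of si-Control held the highest value of 57 core genes, and si-Control replicate 3 held the lowest value of 58. The median deviation of a core gene from its mean was 0.11, -0.059 and -0.12 on the log2 scale in si-Control replicates 1, 2 and 3, and 0.024, 0.019 and 0.040 in the si-CITED2 samples. The core genes thus moved together between samples of the same label, and the samples labelled si-CITED2 lay between the si-Control extremes. Over all genes in the fit, the median deviation was at most 0.0023 in any sample. TMM scaling largely sets that value near 0, so it is no separate check of a sample. Values without si-Control replicate 1 are given beside the results below where that changed a call or a direction or moved a value clearly. Leaving out si-Control replicate 3 moved the median log2 fold change of members the other way, to -0.0095. Its values are given for some members below.

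**Figure D1:**
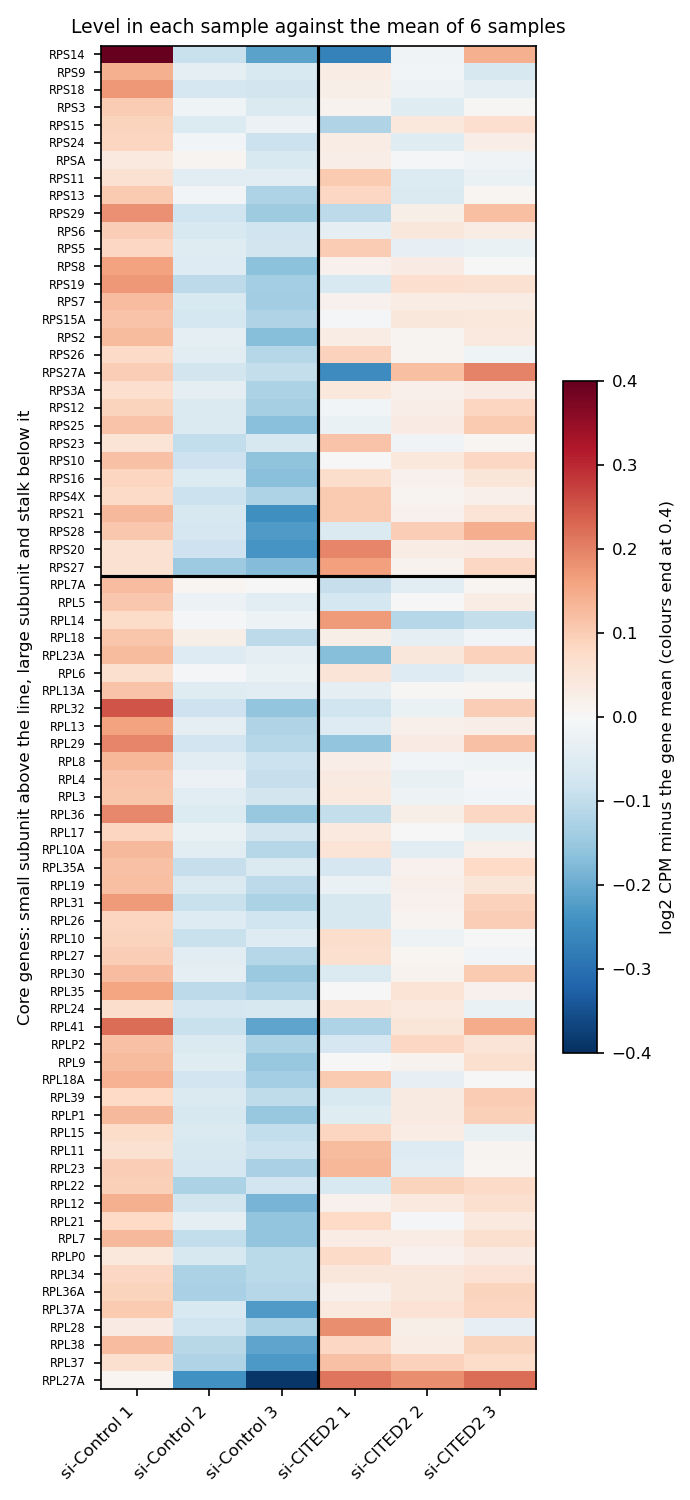
Level of 76 of the 77 core genes (rows, small subunit above the line) in the 6 samples (columns), as log2 CPM minus the gene's mean over the samples. The column of si-Control replicate 1 is above the mean in all 76 and that of si-Control replicate 3 in 0, while RPL27A in the last row is high in all 3 samples labelled si-CITED2.

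The summed message for the ribosome did not differ between the labels beyond the spread of the samples. Members held 6.86%, 6.19% and 5.94% of all counts in the samples labelled si-Control and 6.34%, 6.4% and 6.52% in those labelled si-CITED2. The si-Control samples spanned the whole range and the si-CITED2 samples fell inside it. The means were 6.33% ± 0.471 and 6.42% ± 0.0958 (SD, n = 3), a difference of 0.0899 percentage points (exact permutation test over samples, two-sided, p = 0.8, where 3 against 3 cannot go below 0.1). Without si-Control replicate 1 the difference was 0.352, and without si-Control replicate 3 it was -0.104. Small subunit genes held 2.42% ± 0.184 in si-Control and 2.47% ± 0.0417 in si-CITED2 (exact permutation p = 0.7, n = 3). Large subunit genes held 3.91% ± 0.287 and 3.95% ± 0.0541 (exact permutation p = 0.8, n = 3).

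The balance of the subunits varied little. The log2 ratio of small to large subunit counts over core genes was -0.68 ± 0.0071 in the samples labelled si-Control and -0.67 ± 0.0045 in those labelled si-CITED2 (SD, n = 3). The difference of 0.015 was the same sign for every pair of samples, at the smallest p the exact permutation test allows (p = 0.1).

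**Figure D2:**
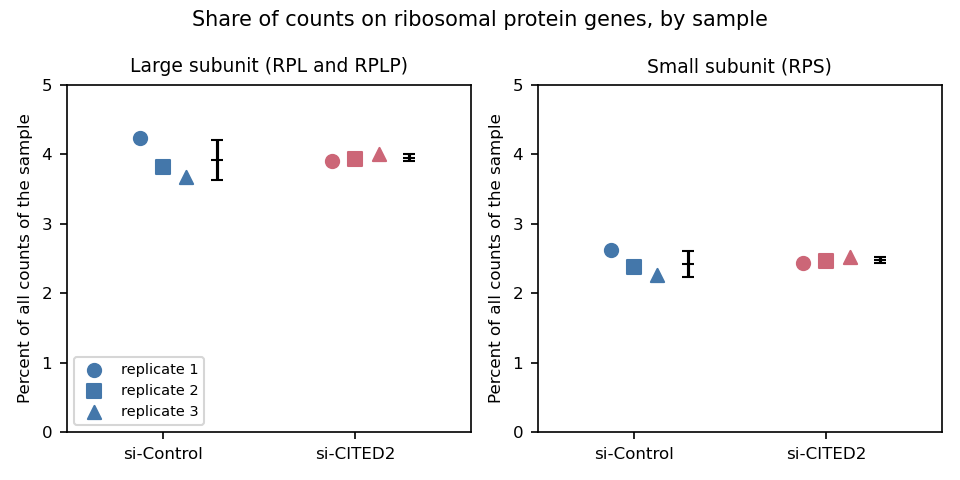
Percent of each sample's counts on large subunit genes (left) and small subunit genes (right); symbols mark replicates 1, 2 and 3 and bars give the mean ± SD of 3 samples. The samples labelled si-CITED2 lie within the range of those labelled si-Control in both panels.

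Levels differed widely within the complex even though each ribosome carries 1 copy of most of these proteins. Per kilobase of the median annotated coding transcript, core genes had a median of 858 CPM per kb in si-Control. RPS9, a small subunit gene, was the lowest at 181, and RPL26, a large subunit gene, stood at 4015. Among the genes with the most counts were RPL26, RPL23A, RPL19 and RPL4, each at 1812 CPM or more in every sample. The reading of such levels is limited by near-identical copies, since a median of 30.5% of a core gene's 50-base stretches also occurred in another annotated gene (range 0% to 91.7%, over 50% in 19 genes). The annotated transcripts were from GENCODE 29. How reads with several positions were counted is not given in the sources used here.

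Of the 81 members in the fit, 3 were higher in the samples labelled si-CITED2 and 0 were lower at an adjusted p under 0.05 (edgeR quasi-likelihood test, adjusted over all 16314 genes). That is 3.7% of the members. Over all genes, 9.36% were called higher and 8.09% lower, and the share of members lay below that background. At an unadjusted p under 0.05, 5 members were higher and 1 lower, where 14.8% and 14.2% of all genes were. The 3 samples of each label did not overlap for 3 members in the higher direction and 1 in the lower, where 16.4% and 16.1% of all genes did so. RPL3L, a muscle paralog of RPL3, had 0 to 4 counts per sample and RPL10L, a testis paralog of RPL10, had 0 to 3, too few for the fit.

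The changes were small for nearly every gene. The median log2 fold change was 0.040 over members and -0.0014 over all genes, and the median size regardless of sign was 0.045 and 0.14. The 95% interval of the fold change lay inside 1.2-fold in either direction for 72 of 81 members (88.9%), against 30.4% of all genes. The median SE was 0.059 for members and 0.092 for all genes, so the intervals of members were also narrower. The log2 fold change was above 0 for 61 members and below 0 for 20. Because core genes moved together between samples, these are not 81 separate observations. Across the 77 core genes, which share libraries, the log2 fold change had Spearman's rho of -0.174 with transcript length, -0.007 with the percent of shared stretches and -0.237 with level.

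**Figure D3:**
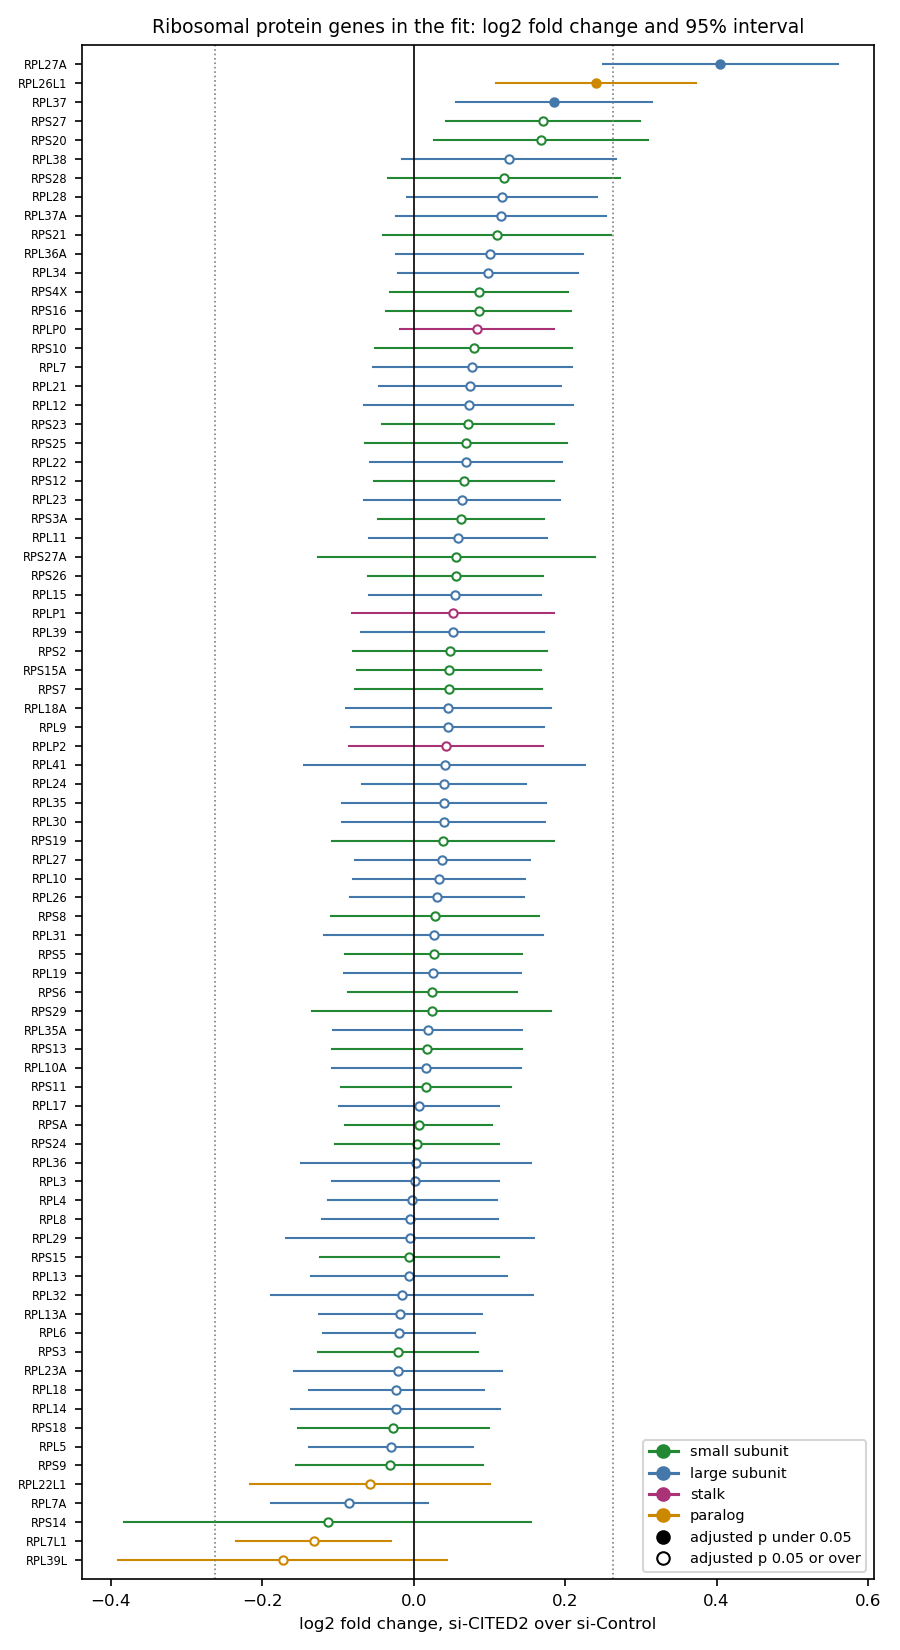
Log2 fold change (si-CITED2 over si-Control) with its 95% interval for 80 of the 81 members in the fit, coloured by subunit and sorted by value; filled points passed an adjusted p of 0.05 and dotted lines mark 1.2-fold in either direction. RPL27A, RPL26L1 and RPL37 are filled, and 71 of the intervals drawn lie between the dotted lines.

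RPL27A, a large subunit protein, changed most. It was at 418, 352 and 317 CPM in the samples labelled si-Control and 482, 473 and 486 CPM in those labelled si-CITED2. The groups did not overlap, and the si-CITED2 samples lay close together. The mean rose from 362 ± 51.3 to 480 ± 6.71 CPM (SD, n = 3), a log2 fold change of 0.41 (SE 0.073, 1.32-fold, 95% interval 1.19 to 1.47, adjusted p = 0.000808 from edgeR). It was the only member called in every alternative fit, with log2 fold changes of 0.32 to 0.52 when single samples were left out. Set against the median core gene of its own sample, it stood at -0.73, -0.75 and -0.85 on the log2 scale in si-Control, against -0.41, -0.42 and -0.35 in si-CITED2.

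The RPL27A locus is shared. In GENCODE 29 the gene spans chr11:8682411-8714759 on the plus strand of GRCh38, and its exons overlap those of TRIM66 and ST5 on the opposite strand and the small nucleolar RNA SNORA3A on its own. The strand setting of the counting is not given in the sources used here, so reads of overlapping genes cannot be told apart. ST5 was at 6.34, 8.10 and 6.79 CPM in si-Control and 10.5, 9.53 and 10.7 CPM in si-CITED2 (log2 fold change 0.52, adjusted p = 0.00652 from edgeR), far below the level of RPL27A in every sample. TRIM66 was at 12.3 and 13.8 CPM on average (log2 fold change 0.16, adjusted p = 0.416 from edgeR). Of the 50-base stretches of RPL27A, 45.2% also occurred in another annotated gene.

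RPL37, a zinc-binding protein of the large subunit, was at 870, 766 and 709 CPM in si-Control and 903, 888 and 876 CPM in si-CITED2. The groups did not overlap, although si-Control replicate 1 lay just below the lowest si-CITED2 sample. The log2 fold change was 0.19 (SE 0.061, 1.14-fold, adjusted p = 0.0472 from edgeR). Only 4.3% of its 50-base stretches were shared with another gene. Leaving out single samples gave 0.12 to 0.27, and it passed the threshold only in the fit without si-Control replicate 1 (adjusted p = 0.000723 from edgeR).

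RPL26L1 encodes a protein nearly identical to RPL26, and its annotated starts hold no pyrimidine run. It was at 55.7, 50.8 and 50.5 CPM in si-Control and 58.3, 63.4 and 63.8 CPM in si-CITED2, again without overlap. The log2 fold change was 0.24 (SE 0.062, 1.18-fold, adjusted p = 0.0123 from edgeR), and leaving out single samples gave 0.22 to 0.29, with the call lost in 3 of those 6 fits. Its parent RPL26 was at 2424, 2205 and 2164 CPM in si-Control and 2187, 2305 and 2449 CPM in si-CITED2, with overlap and a log2 fold change of 0.031. Of the 50-base stretches of RPL26L1, 52.5% also occurred in another gene, nearly all of them in the pseudogene RPL26P30.

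RPS27, a zinc-finger protein of the small subunit, was at 1511, 1310 and 1285 CPM in si-Control and 1623, 1465 and 1535 CPM in si-CITED2. RPS20, a small subunit protein mutated in some inherited colorectal cancers, was at 736, 666 and 599 CPM and at 807, 721 and 721 CPM. In both genes si-Control replicate 1 lay inside the si-CITED2 range while the other two si-Control samples lay below it. The log2 fold changes were 0.17 (SE 0.060, adjusted p = 0.0626) for RPS27 and 0.17 (SE 0.067, adjusted p = 0.0994) for RPS20, both from edgeR and neither past the threshold. RPL38, which is known for its part in the translation of homeobox mRNAs in embryos, was at 807, 686 and 640 CPM in si-Control and 785, 756 and 788 CPM in si-CITED2 (log2 fold change 0.13, adjusted p = 0.23 from edgeR). The rest of the 10 members with the largest values were RPS28, RPL28, RPL37A and RPS21, at log2 fold changes of 0.11 to 0.12 with overlapping groups. These 4 were at 0.16 to 0.21 without si-Control replicate 1, and RPS28, RPL37A and RPS21 passed the threshold. Without si-Control replicate 3 the 4 were at 0.023 to 0.082.

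**Figure D4:**
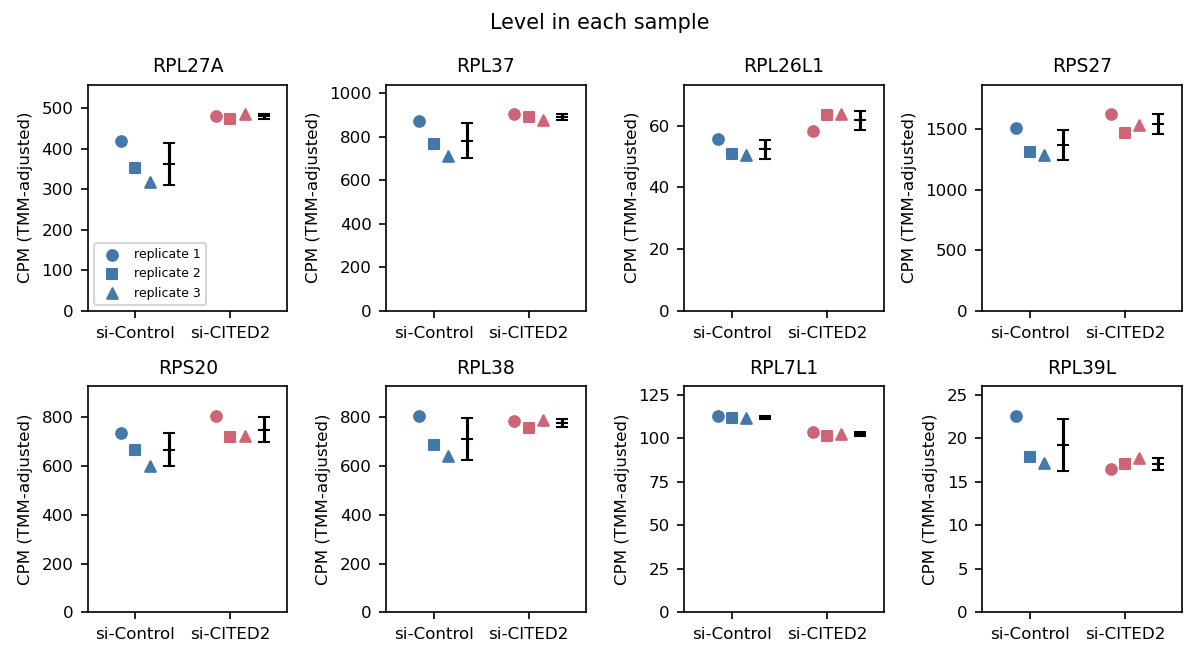
TMM-adjusted CPM of 8 members in each sample, with the mean ± SD of 3 samples beside each group. RPL27A, RPL37 and RPL26L1 do not overlap between the labels and are higher in si-CITED2, RPL7L1 does not overlap and is lower, and RPS27, RPS20, RPL38 and RPL39L overlap.

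At the other end, no member passed the threshold. RPL7L1, a nucleolar relative of RPL7 that acts in the assembly of the large subunit, was at 113, 112 and 112 CPM in si-Control and 104, 101 and 102 CPM in si-CITED2. The groups did not overlap, with a log2 fold change of -0.13 (SE 0.048, adjusted p = 0.0731 from edgeR). RPL39L, a paralog of RPL39 known from testis, was at 22.6, 17.8 and 17.2 CPM in si-Control and 16.4, 17.0 and 17.8 CPM in si-CITED2. Its value of -0.17 was the lowest of the members and rested on si-Control replicate 1, without which it was -0.037. It was -0.24 without si-Control replicate 3. RPL22L1, the paralog of RPL22, was at 59.1, 50.6 and 47.8 CPM and at 51.6, 52.2 and 47.6 CPM, with overlap. Its log2 fold change was -0.058, 0.036 without si-Control replicate 1 and -0.12 without si-Control replicate 3.

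RPS14, the small subunit gene lost in the 5q- syndrome, had the largest spread. It was at 707, 489 and 447 CPM in si-Control and 431, 514 and 574 CPM in si-CITED2, with an SE of 0.13 on a log2 fold change of -0.11 (adjusted p = 0.616 from edgeR). Without si-Control replicate 1 the log2 fold change was 0.11. RPS27A, which is translated as a fusion with ubiquitin, was the most variable core gene among the samples labelled si-CITED2, at 1545, 2002 and 2114 CPM. RPL7A, a large subunit gene whose introns host small nucleolar RNAs, had a log2 fold change of -0.085 (adjusted p = 0.276 from edgeR). RPS9, RPL5, RPS18, RPL14 and RPL18 complete the 10 lowest, at -0.032 to -0.023 with overlapping groups. Without si-Control replicate 1 all 5 were above 0, at 0.0056 to 0.058, RPL7A was at -0.044 and RPS27A moved from 0.056 to 0.12. Without si-Control replicate 3 the 5 were at -0.079 to -0.042, RPL7A at -0.11, RPS27A at 0.019 and RPS14 at -0.24.

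Members with well-known roles differed little. The stalk genes RPLP0, RPLP1 and RPLP2, whose proteins recruit translation factors, had log2 fold changes of 0.083, 0.052 and 0.043. RPS6, the substrate of the S6 kinases, was at 1450, 1298 and 1281 CPM in si-Control and 1318, 1398 and 1383 CPM in si-CITED2 (log2 fold change 0.025, 95% interval -0.087 to 0.14). RPL5 and RPL11, which bind MDM2 when ribosome assembly is disturbed, had values of -0.030 and 0.058. RPSA, also known as the laminin receptor precursor, was at 886 to 950 CPM in si-Control and 916 to 942 CPM in si-CITED2 (0.0065, 95% interval -0.090 to 0.10). RPL13A, RPS19, RPS3, RPL10 and RPL22 lay between -0.021 and 0.068, and their adjusted p from edgeR was 0.507 or more. The 15 members mutated in Diamond-Blackfan anemia, an inherited failure of red cell production, had 0 calls and a median of 0.039. The stalk genes were at 0.13, 0.14 and 0.12 without si-Control replicate 1, and RPLP0 alone of them passed the threshold. RPS6 was then at 0.083, RPL5 at 0.019, RPL11 at 0.11, RPSA at 0.028, RPL13A at 0.038, RPS19 at 0.14, RPS3 at 0.027, RPL10 at 0.089 and RPL22 at 0.14, and none of these passed. Of the Diamond-Blackfan genes, 3 were then higher and 0 lower, with a median of 0.11. Without si-Control replicate 3 the stalk genes RPLP0, RPLP1 and RPLP2 were at 0.050, -0.0089 and -0.0095. In that fit RPS6 was at -0.0095, RPL5 at -0.060, RPL11 at 0.028, RPSA at -0.023 and RPL13A at -0.045. There RPS19 was at -0.020, RPS3 at -0.055, RPL10 at 0.015 and RPL22 at 0.046.

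Paralogs were compared with their parents within each sample, so that library scaling drops out. The log2 ratio of RPL26L1 to RPL26 was -5.44, -5.44 and -5.42 in si-Control, against -5.23, -5.18 and -5.26 in si-CITED2. The groups did not overlap, and the difference of 0.21 had the smallest p the design allows (exact permutation test, p = 0.1, adjusted p = 0.167 over the 5 pairs with enough counts). The ratio of RPL7L1 to RPL7 differed by -0.21 and that of RPL39L to RPL39 by -0.21, both without overlap and with the same exact permutation p = 0.1 and adjusted p = 0.167. Without si-Control replicate 1 these differences were -0.29 and -0.14, and that of RPL26L1 stayed at 0.19 to 0.23 whichever sample was left out. RPL22L1 to RPL22 differed by -0.12 (exact permutation p = 0.2, adjusted p = 0.25), and by -0.058 to -0.19 when single samples were left out. RPL36AL, a paralog outside the symbol pattern, differed from RPL36A by -0.0017 (exact permutation p = 0.9, adjusted p = 0.9). No pair passed after adjustment.

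Without si-Control replicate 1, more members were called, while the share of all genes called hardly moved. In that fit 19 of 81 members (23.5%) were higher and 0 were lower, against 9.26% and 8.09% of all genes. The 19 comprised 8 small subunit genes, 10 large subunit or stalk genes and RPL26L1. Among them were RPS27 (log2 fold change 0.25, adjusted p = 0.00169 from edgeR), RPS20 (0.24, adjusted p = 0.00982), RPL38 (0.23, adjusted p = 0.00287) and RPLP0 (0.13, adjusted p = 0.0342). The log2 fold change was then above 0 for 78 members, with a median of 0.11. Leaving out any other sample gave 1 or 2 higher and 0 lower. Without si-Control replicate 3 the median log2 fold change of members was -0.0095, with 2 higher and 0 lower. Scaled instead by the summed counts of the core genes, which sets their common shift aside, RPL27A was the only member called (log2 fold change 0.37, adjusted p = 0.00092 from edgeR). RPL37 was then at 0.15 (adjusted p = 0.186) and RPL26L1 at 0.20 (adjusted p = 0.168), and all genes were called at 4.98% higher and 5.2% lower.

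**Figure D5:**
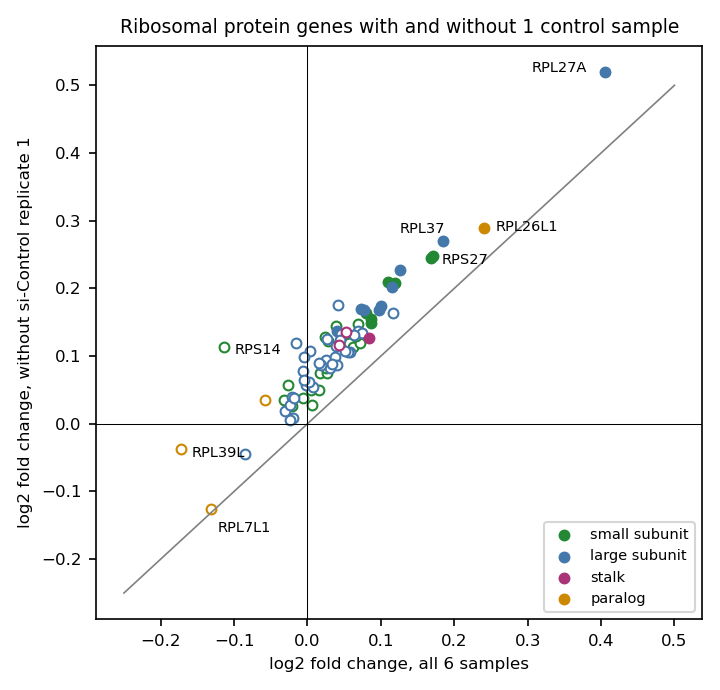
Log2 fold change of the 81 members with all 6 samples (x) and without si-Control replicate 1 (y); the line marks equal values and filled points passed an adjusted p of 0.05 in the fit without that sample. Nearly all points lie above the line and 19 are filled, among them RPL27A, RPL26L1, RPL37 and RPS27.

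Genes close to the members were read the same way. Of the ribosomal protein genes outside the symbol pattern, FAU, which encodes a fusion with a ubiquitin-like protein, had a log2 fold change of 0.041, RPS27L 0.18 and GNB2L1 0.011, and 0 of them were called. Of the 77 mitochondrial ribosomal protein genes, 3 were higher and 7 lower (13% called, against 17.4% of all genes, median -0.029). The higher ones were MRPL52 (94.0 to 114.9 CPM, log2 fold change 0.29, adjusted p = 0.00249 from edgeR), MRPL15 (0.19) and MRPL33 (0.18). Among the lower ones were MRPS2 (67.4 to 54.8 CPM, -0.30, adjusted p = 0.00335 from edgeR), MRPL4 (-0.24), MRPS10 (-0.23) and MRPS34 (-0.23). Their share of all counts was 0.445% ± 0.0174 in si-Control and 0.425% ± 0.0019 in si-CITED2 (SD, n = 3, exact permutation p = 0.1). Of 29 ribosomal protein pseudogenes in the fit, RPL31P11 (-0.39) and RPL19P12 (-0.52) were lower and 0 were higher (6.9% called). Pseudogenes held 0.781% to 0.927% of the counts of members and pseudogenes together.

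Other mRNAs with a TOP start and their regulators were also examined. Of 22 further TOP mRNAs, 3 were lower and 0 higher, which is 13.6% against 17.4% of all genes called in either direction. EEF2, the elongation factor that moves the ribosome along the mRNA, was at 2640, 2662 and 2649 CPM in si-Control and 2277, 2258 and 2248 CPM in si-CITED2, without overlap (log2 fold change -0.23, adjusted p = 0.000888 from edgeR). EIF4B, a cofactor of the initiation helicase, was at -0.14 and the small nucleolar RNA host SNHG1 at -0.30. Of 13 genes that control these mRNAs, 4 were lower and 0 higher (30.8%, where 8.09% of all genes were lower and 9.36% higher). They were LARP1 (-0.16, adjusted p = 0.0208 from edgeR), which binds the TOP motif, its relative LARP1B (-0.29), and the mTOR complex subunits RPTOR (-0.16) and MLST8 (-0.27). Of 10 kinases in the RPS6 kinase families, RPS6KA5 was lower (-0.47, adjusted p = 0.000882 from edgeR) and 0 were higher (10% called). Of 15 chaperones and enzymes that act on ribosomal proteins, 2 were lower and 0 higher (13.3% called), GRWD1 (-0.30), a chaperone of RPL3, and ZNF598 (-0.35), a ubiquitin ligase that marks stalled ribosomes. Except for the TOP control genes, these shares lay below the 17.4% of all genes, and the lists are short.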

How the data were processed

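Total RNA of 6 PC3 samples was extracted with Trizol and sequenced from SMARTer mRNA-seq libraries. For each sample the authors deposited a table of unnormalized read counts by gene symbol. The submitters' processing notes name TopHat, edgeR and the hg19 build, without versions. The counting program, annotation, strand setting, handling of reads with several positions and sequencing batches are not given in the sources used here. The labels do not say whether replicates were separate cultures, and although the study describes independent experiments, p-values measure the spread between these samples, which may be technical. Samples of one label were not duplicates, since their chi-square over genes was 2.80 to 7.14 per degree of freedom. In si-Control it was 6.47 and 7.14 for replicate 1 against replicates 2 and 3, and 3.75 between replicates 2 and 3. The same pairs of si-CITED2 replicates had 4.85, 5.10 and 2.80.

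The files hold 25737 rows for 24462 symbols. For repeated symbols only the row of highest count was used (0.0821% of all counts were left out), and RPS18 was the only member with several rows (6). Differential expression was tested with edgeR 4.0.16 in R 4.3.3 (filterByExpr, TMM, quasi-likelihood test, no block, since the study used unpaired tests), which fitted 16314 genes. Adjusted p-values are Benjamini-Hochberg values over all of these, and a gene was called at an adjusted p under 0.05. The SE was derived from the test statistic. CPM are counts scaled by the TMM-adjusted library size, and 3 counts corresponded to 0.104 to 0.154 CPM. Shares and paralog ratios were compared with exact two-sided permutation tests over samples, computed in R (smallest p 0.1). The ratios used 0.5 added to each count and at least 10 counts in every sample. Spearman's rho was computed with scipy 1.17.1. The scripts were tested on simulated data.

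Genes named in the text were CITED2, the 10 highest and 10 lowest members by log2 fold change, the 5 with the most counts, all paralogs, members not in the fit, a list of members with known roles, and up to 4 called genes per other list and direction. TRIM66 and ST5 were added after the RPL27A annotation was read. A few genes that the rule covers are not reported here. The members and lists were chosen with earlier results of these data known. Start windows were taken from RefSeq (GRCh38.p14), and lengths, shared stretches and overlaps from GENCODE 29 (GRCh38). Neither is the hg19 build of the files, so no position was transferred. Protein sequences were not used here. Alternatives were a block for replicate number, dropping single samples, DESeq2 1.42.0, library size without TMM, TMM without the members, other filters, repeated rows summed and, added after seeing the data, scaling by the core genes' counts and leaving samples out of the paralog ratios.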

Additional observations from a re-analysis of the deposited data

How the results depend on the processing

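The number of members called higher was 3 with all 6 samples and 1 to 19 when single samples were left out, where 19 belonged to the fit without si-Control replicate 1. It was 4 with DESeq2, 5 with no filter on low counts and 1 when libraries were scaled by the core ribosomal protein counts. The number called lower was 0 except on library size without TMM, where RPL7L1 made it 1. The median log2 fold change of the members was -0.0095 to 0.11 when single samples were left out. For mitochondrial ribosomal protein genes, leaving out single samples gave 1 to 4 higher and 4 to 6 lower, library size without TMM gave 1 higher and 10 lower, and scaling by the core counts gave 1 higher and 4 lower. CITED2 mRNA had log2 fold changes of 0.17 to 0.29 when single samples were left out, past the threshold in 2 of 6 fits, 0.22 on library size without TMM (adjusted p = 0.0518 from edgeR) and 0.20 scaled by the core counts (adjusted p = 0.231 from edgeR). The difference in share ran from -0.104 percentage points without si-Control replicate 3 to 0.352 without si-Control replicate 1. The cause of these differences was not tested.

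Samples with the same replicate number did not deviate together (Pearson's r across all genes -0.051, 0.062 and -0.026 for numbers 1, 2 and 3), so the numbers were not taken as pairs. With the replicate block, 5 members were higher, the 3 named above with RPS27 and RPS20, and 1405 and 1154 of all genes were called higher and lower.

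For the 37 genes named by the fixed rule, 518 alternative values were computed. Of these, 457 kept their direction and their side of the threshold, 14 passed it in the alternative only, 11 passed it only with the settings reported, and 36, in 20 genes, changed sign without a call in either fit. No called value reversed. RPL3L and RPL10L had too few counts to be fitted, and for genes with near-identical copies the handling of reads with several positions limits the level.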
